A study of Homo sapiens with 4 samples.

Results

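Metallothioneins are small cysteine-rich proteins that bind zinc, copper and cadmium, and the expression of 7 of their genes (MT1E, MT1F, MT1G, MT1H, MT1M, MT1X and MT2A) was read in M14 cells, an established human melanoma line. The platform annotation named one of these genes for 11 of the 54675 probe sets on the array, and none of the 11 was annotated to more than 1 gene. Total RNA from 4 cultures went onto 1 Affymetrix whole-genome array each. The lines were stably transfected M14 cells that had been selected with G418 and sorted for eGFP. One carried the empty plasmid pIRES2 and the other carried pIRES2 with FLAG-tagged ARHGAP8, a variant without one exon. Each line was grown for 4 days in medium with 10% serum and G418, either on plastic coated with bovine collagen (2D) or embedded in growth factor-reduced Matrigel (3D). Thus the groups were the empty-vector line in 2D, the ARHGAP8 line in 2D, the empty-vector line in 3D and the ARHGAP8 line in 3D. Each plasmid was represented by a single line, so what the plasmid did cannot be told apart from what any 2 transfected lines would show, and with 1 array per group single ratios have no replicate error.

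Metallothionein genes are transcribed more strongly when the transcription factor MTF1 senses zinc and binds short metal response elements (MREs) in their promoters. Cadmium, copper, oxidative stress and glucocorticoids also raise their transcription, and the proteins buffer zinc and scavenge oxidants. The genes lie side by side on chromosome 16 and their coding sequences are nearly identical, so a probe set for one can bind the RNA of another. All 9 member probe sets with signal carried the array maker's x suffix, which marks probes that may match other sequences. Their values are therefore uncertain as values of single genes and are no independent evidence of one another.

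RefSeq promoters of GRCh38.p14 were at hand for 3 members, and they are shown because these genes had parallel profiles across the arrays. Each line holds the 250 bases before the start of transcription on the plus strand of chromosome 16, and capitals mark MRE cores, TGCACNC or TGCGCNC, found on either strand.
MT2A, chr16:56608334-56608583: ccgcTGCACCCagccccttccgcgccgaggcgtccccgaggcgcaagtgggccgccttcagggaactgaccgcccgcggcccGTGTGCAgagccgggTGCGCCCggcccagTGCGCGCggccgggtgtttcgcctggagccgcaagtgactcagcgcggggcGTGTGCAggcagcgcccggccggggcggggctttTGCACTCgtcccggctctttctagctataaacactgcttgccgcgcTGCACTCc
MT1H, chr16:56669564-56669813: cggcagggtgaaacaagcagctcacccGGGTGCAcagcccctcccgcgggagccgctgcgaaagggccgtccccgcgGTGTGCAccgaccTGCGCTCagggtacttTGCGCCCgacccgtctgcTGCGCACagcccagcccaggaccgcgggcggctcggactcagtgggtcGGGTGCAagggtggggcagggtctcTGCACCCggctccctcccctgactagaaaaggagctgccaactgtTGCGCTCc
MT1X, chr16:56682220-56682469: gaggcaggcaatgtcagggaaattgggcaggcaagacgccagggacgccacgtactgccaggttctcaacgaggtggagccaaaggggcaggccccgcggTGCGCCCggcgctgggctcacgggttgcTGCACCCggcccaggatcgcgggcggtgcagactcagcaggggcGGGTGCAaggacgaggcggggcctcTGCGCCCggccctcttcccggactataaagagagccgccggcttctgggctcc

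These windows were dense in MRE cores. The MT2A window held 7, the MT1H window 8 and the MT1X window 4. Of 35116 RefSeq promoter windows of the same length, 24.8% held at least 1 core, 0.37% at least 4, 0.0313% at least 7 and 0.0171% at least 8. The motif TATAAA, a core promoter element, was found once in MT2A and once in MT1X but not in MT1H, and 10.7% of all windows held it. The AP-1 motif TGACTCA was found once, in MT2A, against 4.2% of all windows. GC boxes, GGGCGG, were found 2 times each in MT2A and MT1X and 1 time in MT1H. At least 1 GC box was held by 42.6% of all windows, and at least 2 by 24.3%. In pairwise alignment the MT1H and MT1X windows were 61.2% identical, against 52.7% for MT1H with MT2A and 53.9% for MT1X with MT2A. A match is a description of letters and does not show that a factor was bound.

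**Figure D1:**
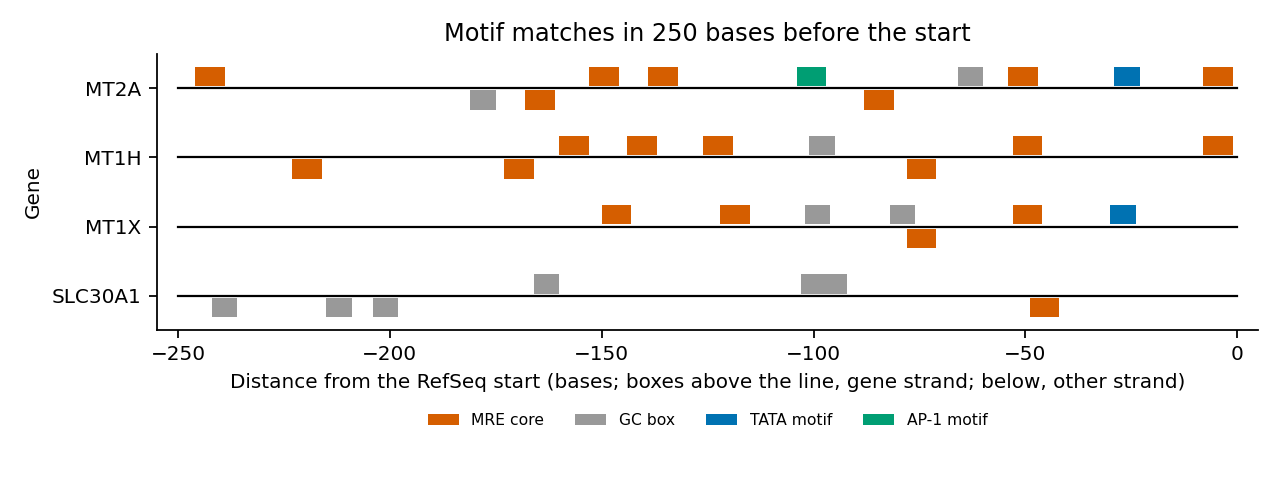
Motif matches in the 250 bases before the RefSeq start of MT2A, MT1H, MT1X and the zinc exporter gene SLC30A1, by distance from the start in bases. Boxes above a line are matches on the gene's strand and boxes below are on the other strand; the MRE cores number 7, 8, 4 and 1 from top to bottom.

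The 4 arrays had the same trimmed mean signal of 150.0, and 48.4% to 51.9% of probe sets were above a floor of 72.3, the median signal, under which values were set to the floor. The ARHGAP8 3D array stood apart in its ribosomal RNA control probe sets, with a median of 626 for 18S against 27.7 to 49.4 on the other arrays and 1390 for 28S against 94.4 to 119. Its part in the results was not tested, and every 3D value of the ARHGAP8 line uses it. For ACTB, the signal at the 3' end over that at the 5' end, a measure of RNA integrity, was 1.05 to 1.10 in 2D and 1.23 to 1.32 in 3D. All 4 probe sets annotated to ARHGAP8 read between 4.02 and 14.8, under the floor on every array, those of the ARHGAP8 line included. The arrays thus gave no sign of the transgene, the ARHGAP8 line is called so by its label, and where on the transcript these probe sets lie was not analysed here. Of 12 melanocyte markers with a probe set, 11 were above the floor on all 4 arrays and PMEL was under it. Markers of other cell types were above the floor on all 4 arrays for 4 of 10 of fibroblasts, 4 of 10 of epithelium, 1 of 9 of leukocytes and 1 of 8 of endothelium, while PTPRC, EPCAM, CDH5 and COL3A1 were under it on all 4. The epithelial markers summed to 1354 and 1469 in 2D and 950.0 and 1235 in 3D for the empty-vector and the ARHGAP8 line. Like most members, this sum was highest on the ARHGAP8 2D array and lowest on the empty-vector 3D array. No other marker list had a sum with those extremes. The epithelial sum was higher on the empty-vector 2D array than on the ARHGAP8 3D array, the reverse of the members' median. Its largest part was KRT18, a keratin of simple epithelium, at 729 and 944 in 2D and 313 and 458 in 3D. KRT18 fell in 3D by 1.13 ± 0.17 log2 (BH-adjusted p 0.00024, limma) and was at 0.46 ± 0.17 between the lines without passing. The other epithelial markers tested went the other way in 3D, and the list's median culture difference was 0.34. KRT8 was at 0.39 ± 0.25, ELF3 at 0.31 ± 0.30, GRHL2 at 0.34 ± 0.24 and ESRP1 at 0.47 ± 0.28, none passing. The melanocyte sum had the extremes of most members reversed, with its lowest value, 7337, on the ARHGAP8 2D array. Its highest, 12272, fell on the empty-vector 3D array. For the fibroblast sum the same arrays held the lowest value, 726, and the highest, 1015. Leukocyte markers peaked on the ARHGAP8 3D array, with a sum of 560, and endothelial markers on the empty-vector 3D array, with 566. The part of any of these marker lists in the results was not tested.

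Across the arrays the metallothionein probe sets had parallel profiles. They were highest on the ARHGAP8 2D array and lowest on the empty-vector 3D array in 8 of the 9 with signal, where 9.33% of all 28651 probe sets tested had that order. MT2A, the most widely expressed human metallothionein, read 2867 in the empty-vector line in 2D, 3930 in the ARHGAP8 line in 2D, 2434 in the empty-vector line in 3D and 3296 in the ARHGAP8 line in 3D. Pairs of values below give the empty-vector array first and the ARHGAP8 array second. Both arrays of the ARHGAP8 line were above both of the empty-vector line, and the cultures overlapped.

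MT1X was read by 2 probe sets. Probe set 208581_x_at read 1577 and 2231 in 2D and 1283 and 1861 in 3D. Probe set 204326_x_at read 1374 and 1881 in 2D and 1022 and 1596 in 3D. Both had the 2 arrays of the ARHGAP8 line above the 2 of the empty-vector line. The transcript accession that the annotation gives for 204326_x_at belongs to the pseudogene MT1L in the RefSeq gene table, so its assignment to MT1X is doubtful.

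MT1H read 811 and 1177 in 2D and 657 and 842 in 3D. MT1G read 752 and 826 in 2D and 582 and 759 in 3D through 204745_x_at. For both genes the lines did not overlap, and in each line the 3D array was below the 2D array.

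MT1E was read by 212859_x_at at 1150 and 1573 in 2D and 772 and 1032 in 3D. Here both 3D arrays were below both 2D arrays. Its other probe set, 216336_x_at, read 536 and 1221 on plastic and 503 and 661 in gel, so its ARHGAP8 2D array stood well above the other 3.

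MT1F has the probe set with the smallest span over the arrays among those with signal, 213629_x_at. It read 221 and 237 in 2D and 191 and 197 in 3D, a span of 1.24-fold from the lowest to the highest array. Its other probe set, 217165_x_at, read 435 and 416 in 2D and 315 and 509 in 3D and was the exception to the common order, with its highest value on the ARHGAP8 3D array. The only probe set of MT1M, 217546_at, read 3.63 to 14, and 210472_at of MT1G read 5.34 to 11.1. Both were under the floor on every array and give no fold; these were also the only 2 members without the x suffix. MT1G thus had signal through one probe set and none through the other.

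**Figure D2:**
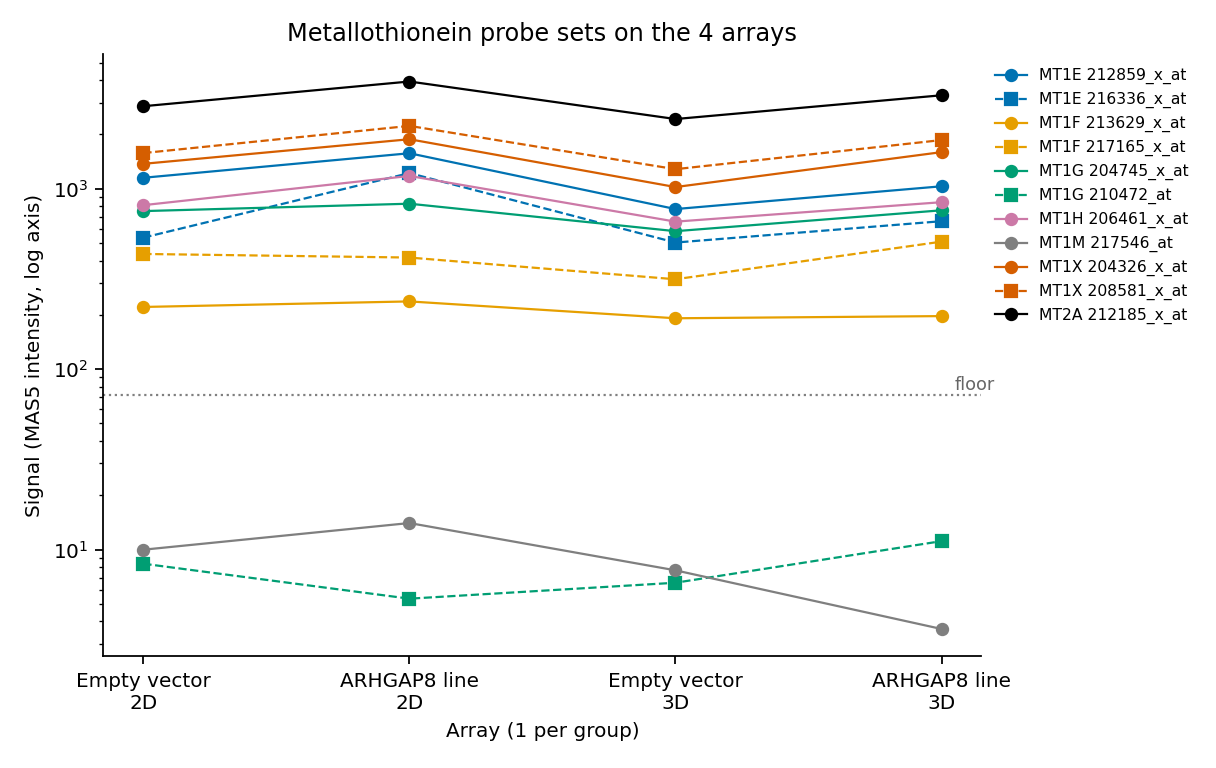
Signal of the 11 metallothionein probe sets (MAS5 intensity, log axis) on the 4 arrays, 1 per group; lines only join the points of a probe set. MT2A runs from 2434 to 3930, and the probe sets of MT1M and 210472_at of MT1G lie under the dotted floor of 72.3.

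The first comparison asked how the ARHGAP8 line differed from the empty-vector line. In 2D the median difference over the 9 probe sets with signal was 0.45 log2, or 1.37-fold, and in 3D it was 0.42 log2, or 1.34-fold, both medians being higher in the ARHGAP8 line. Over all 28651 probe sets tested the medians were -0.0014 and 0.0023. Those 2 differences share no array. Higher in both cultures were 8 of 9 probe sets, against 24.5% of all tested, and in 6 of 9 both ARHGAP8 arrays were above both empty-vector arrays, against 13.2%. The members had been chosen with this direction known, so the counts are a description.

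No member passed the test between the lines. In the additive model of plasmid and culture fitted with limma over all probe sets, 0 of 9 passed after Benjamini-Hochberg (BH) adjustment, as did 0% of all 28651, while 6 of 9 were higher at an unadjusted p under 0.05 against 3.42% of all. The additive differences of the 9 ran from 0.07 to 0.79 log2 with a median of 0.45. MT2A was higher by 0.45 ± 0.18 log2 (moderated SE, 4 arrays, which draws mostly on the variance of probe sets of like signal), built from 0.46 on plastic and 0.44 in gel, with a BH-adjusted p of 0.610 from limma. MT1H differed by 0.45 ± 0.16, with 0.54 in 2D and 0.36 in 3D. MT1X was higher by 0.52 ± 0.16 through 208581_x_at, with nearly the same value in 2D (0.50) and 3D (0.54), and by 0.55 ± 0.16 through 204326_x_at.

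MT1E differed by 0.44 ± 0.16 through 212859_x_at, from 0.45 in 2D and 0.42 in 3D. The lowest adjusted p of any member was that of 216336_x_at, a BH-adjusted 0.343 from limma. Its difference of 0.79 ± 0.19 joined 1.19 in 2D with 0.39 in 3D, and it was the only member at least 2-fold apart in a single comparison, a rule that 0.23% of all tested probe sets met upward in 2D. MT1G differed by 0.26 ± 0.17 and MT1F by 0.07 ± 0.24 through 213629_x_at. For 217165_x_at of MT1F the line difference was -0.07 in 2D and 0.69 in 3D. Its fitted line difference thus joins values of opposite sign.

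**Figure D3:**
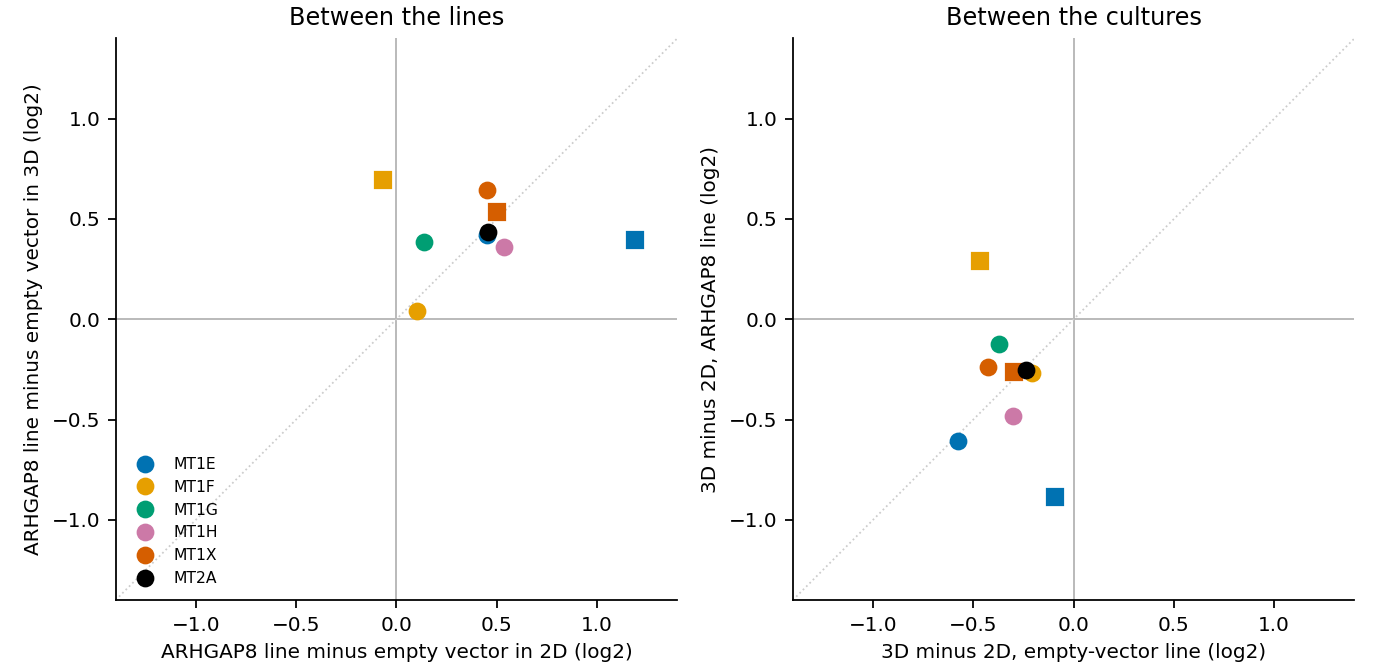
Log2 differences of the 9 probe sets with signal. The left panel sets the line difference in 2D (x) against that in 3D (y), and the right panel the culture difference in the empty-vector line (x) against that in the ARHGAP8 line (y). Circles are the first and squares the second probe set of a gene, and the dotted line marks equal values. Most points lie in the upper right on the left and in the lower left on the right; the squares of MT1E (1.19 and 0.39) and MT1F (-0.07 and 0.69) on the left depart from the diagonal.

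The second comparison asked how embedding in Matrigel differed from growth on plastic. Metallothionein signals were lower in 3D, with a median of -0.30 log2 (0.810-fold) for the empty-vector line and -0.26 (0.835-fold) for the ARHGAP8 line. The medians over all probe sets tested were 0.0037 and 0.039. Lower in 3D in both lines were 8 of 9 probe sets, against 28% of all tested. The cultures overlapped in most members: both 3D arrays were below both 2D arrays in 2 of 9, 212859_x_at of MT1E and 213629_x_at of MT1F, against 21.9% of all tested.

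No member probe set passed for the culture either. By limma with BH adjustment 0 of 9 passed, against 1.87% of all tested that fell and 1.63% that rose, and 3 of 9 were lower at an unadjusted p under 0.05 against 9.38%. MT1E came closest. Through 212859_x_at it was at -0.59 ± 0.16 log2 (moderated SE, 4 arrays), with -0.58 for the empty vector and -0.61 for ARHGAP8 and a BH-adjusted p of 0.0559 from limma. When the fit took 1 probe set per gene, or probe sets above the floor on all 4 arrays, this value passed, with BH-adjusted p of 0.0244 and 0.0370 from limma. Over the 8 alternatives at the probe set level its adjusted p ran from 0.0370 to 0.783, the last without any filter on low values. Keeping only probe sets that name 1 gene, 1 of the 8, leaves this fit unchanged for the members. In the fit of 1 probe set per gene the call of MT1E was kept in 4 of 8 other settings, with adjusted p from 0.0164 to 0.475.

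The other members were lower by smaller amounts. MT1H was at -0.39 ± 0.16, 204326_x_at of MT1X at -0.33 ± 0.16 and 208581_x_at at -0.28 ± 0.16. MT2A was at -0.24 ± 0.18, with -0.24 and -0.25 in the separate lines, and MT1G was at -0.25 ± 0.17. The second MT1E probe set, 216336_x_at, joined -0.09 for the empty vector with -0.89 for ARHGAP8. For 217165_x_at of MT1F the lines went opposite ways, at -0.47 and 0.29.

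**Figure D4:**
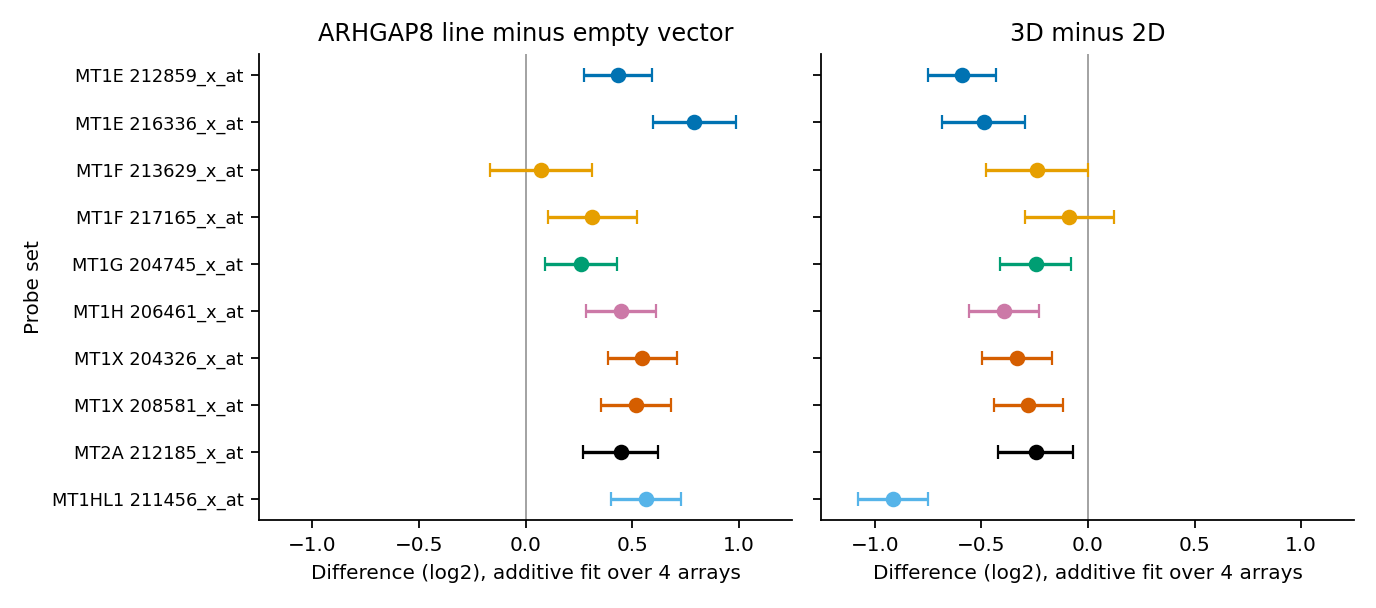
Additive differences (log2) of the 9 metallothionein probe sets with signal and of MT1HL1, between the lines (left) and between the cultures (right); bars are 1 moderated SE from limma over 4 arrays. All 9 members lie above 0 on the left and below 0 on the right, and MT1HL1 lies lowest on the right at -0.92.

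Of the family outside the 7 members, 3 genes had a probe set. MT1HL1, a metallothionein gene on chromosome 1 that resembles MT1H, read 1627 and 2618 in 2D and 939 and 1276 in 3D. Both 3D arrays were below both 2D arrays. It fell in 3D by 0.92 ± 0.16 log2 (BH-adjusted p 0.00631, limma), from -0.79 for the empty vector and -1.04 for ARHGAP8. Between the lines it was higher by 0.56 ± 0.16 without passing. Its probe set 211456_x_at has the x suffix too, and it kept the culture call in 5 of 7 other settings of the fit, not without a filter or without an intensity trend. MT3, the brain metallothionein, read 145 to 172 and MT4, of stratified epithelium, 83.7 to 146, and neither passed for the line or the culture. Between the lines MT3 was at -0.14 ± 0.26, a difference smaller than its SE, and MT4 was at 0.38 ± 0.26.

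Genes around the metallothioneins on chromosome 16 were read for comparison. In the RefSeq order MT2A comes first and MT1X last among 15 loci, of which 14 are metallothionein genes or pseudogenes and 7 had a probe set. The 5 nearest measured genes outside the metallothionein family on each side were chosen after the members' values were seen. They had a median line difference of 0.0031 log2, against -0.0028 over all genes tested. Of the 10, 1 was higher in both cultures, CPNE2 at 0.59 ± 0.24, where 3368 of all 13239 genes tested were. The 10 had a median culture difference of -0.15, against 0.034 over all genes. Lower in both lines were 6 of 10, where 3830 of all 13239 were. NUP93, a nuclear pore gene and the nearest measured neighbour past MT1X, was at 0.06 for the line and -0.54 for the culture. None of the 10 passed either limma test, BH-adjusted over 13239 genes.

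The lists that follow were read from 1 probe set per gene. Metal sensing and zinc transport came first. Of 23 tested, 0 passed between the lines and 1 fell in 3D by limma after BH adjustment, where 2.83% of all 13239 genes rose and 4.15% fell. Between the lines 0.068% of all genes rose and 0.0604% fell. The list's median was -0.11 log2 between the lines and 0.05 for the culture, against -0.0028 and 0.034 over all genes. The falling gene was SLC30A1, the zinc exporter of the plasma membrane and a target of MTF1. Its probe set 212907_at read 235 and 224 in 2D and 112 and 69.7 in 3D, both 3D arrays being below both 2D arrays. It fell by 1.35 ± 0.26 in the fit (BH-adjusted p 0.00239, limma), from -1.07 for the empty vector and -1.63 for ARHGAP8, where the 3D array was set to the floor. Its other probe set with signal, 228181_at, was at -0.31 ± 0.25 and did not pass, so the call rests on 1 of 2 probe sets. With the mean of probe sets per gene SLC30A1 was at -0.55, with a BH-adjusted p of 0.136 from limma. That mean also takes in 242716_at, under the floor on every array, which adds a difference of 0 and shrinks the value. Between the lines SLC30A1 was at -0.35 ± 0.26 through 212907_at, opposite in sign to the metallothioneins. Through 228181_at it was at 0.13 ± 0.25, with their sign, and neither passed.

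The promoter window of SLC30A1 is shown beside those of the metallothioneins because it was the zinc transport gene that fell in 3D. It lies on the minus strand of chromosome 1 and held 1 MRE core, in capitals, and 6 GC boxes, a number of GC boxes that 2.22% of all windows reached.
SLC30A1, chr1:211579162-211579411: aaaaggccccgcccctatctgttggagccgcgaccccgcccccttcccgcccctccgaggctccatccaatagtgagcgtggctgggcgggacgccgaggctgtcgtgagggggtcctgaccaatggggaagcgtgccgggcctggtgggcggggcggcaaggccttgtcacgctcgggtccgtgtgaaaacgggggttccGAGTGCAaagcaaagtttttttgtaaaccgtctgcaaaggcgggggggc

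MTF1 itself read 248 and 258 in 2D and 322 and 204 in 3D. It was at -0.30 ± 0.23 between the lines and 0.02 ± 0.23 for the culture. The zinc importer genes SLC39A10 and SLC39A6 were at 0.55 ± 0.17 and 0.30 ± 0.16 for the culture, and SLC39A4 was at -0.73 ± 0.23 between the lines. None of these passed in limma, and SLC39A10 came closest, with a BH-adjusted p of 0.0576.

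Copper handling genes, 18 tested, had 0 past either test, with medians of 0.08 between the lines and -0.03 for the culture. SLC31A1, the copper importer, was at 0.99 ± 0.22 between the lines, from 0.45 in 2D and 1.54 in 3D (BH-adjusted p 0.0978, limma). The copper pump gene ATP7A was at 0.12 ± 0.24.

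Stress genes that heavy metals and misfolded proteins induce had 1 of 12 rising and 3 falling in 3D, with 8 not passing and a median of -0.41. BAG3, a co-chaperone, fell by 0.69 ± 0.16, HSPH1 by 0.65 ± 0.16 and DNAJA1 by 0.56 ± 0.16. CRYAB, the small heat shock protein alpha B-crystallin, rose by 1.37 ± 0.24. In 8 other settings of the fit the call was kept in 6 for CRYAB, 5 for BAG3, 5 for HSPH1 and only 2 for DNAJA1. HMOX1, the haem oxygenase gene that cadmium strongly induces, was at -0.50 ± 0.25, with the empty-vector 3D array at the floor. Between the lines 0 of 12 passed, and the median was 0.06.

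Glutathione and NRF2 genes had 2 of 15 rising and 5 falling in 3D, with a median of -0.05. GCLM, the modifier subunit of glutamate cysteine ligase, fell by 0.74 ± 0.17. GSS, the glutathione synthetase gene, fell by 0.72 ± 0.16. KEAP1, the inhibitor of NRF2, fell by 0.97 ± 0.22. GCLC fell by 0.61 ± 0.17 and SLC7A11 by 0.67 ± 0.19, but each kept the call in only 2 of 8 other settings of the fit. ME1, malic enzyme, rose by 1.70 ± 0.18 and the ferritin light chain gene FTL by 0.76 ± 0.18. With the mean of probe sets per gene ME1 alone of these passed. Between the lines 0 of 15 passed.

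Glucocorticoid response genes had 2 of 12 rising and 0 falling in 3D, with a median of 0.35. TSC22D3 rose by 1.54 ± 0.24 and CEBPD by 1.17 ± 0.18. With the mean of probe sets per gene neither passed. TSC22D3 was then at 0.67 and CEBPD at 0.58, with BH-adjusted p of 0.142 and 0.120 from limma. That mean includes any probe set of the gene under the floor on every array, which adds a difference of 0 and shrinks the value. FKBP5, a co-chaperone of the receptor, was at -0.21 ± 0.19. Between the lines 0 of 12 passed.

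**Figure D5:**
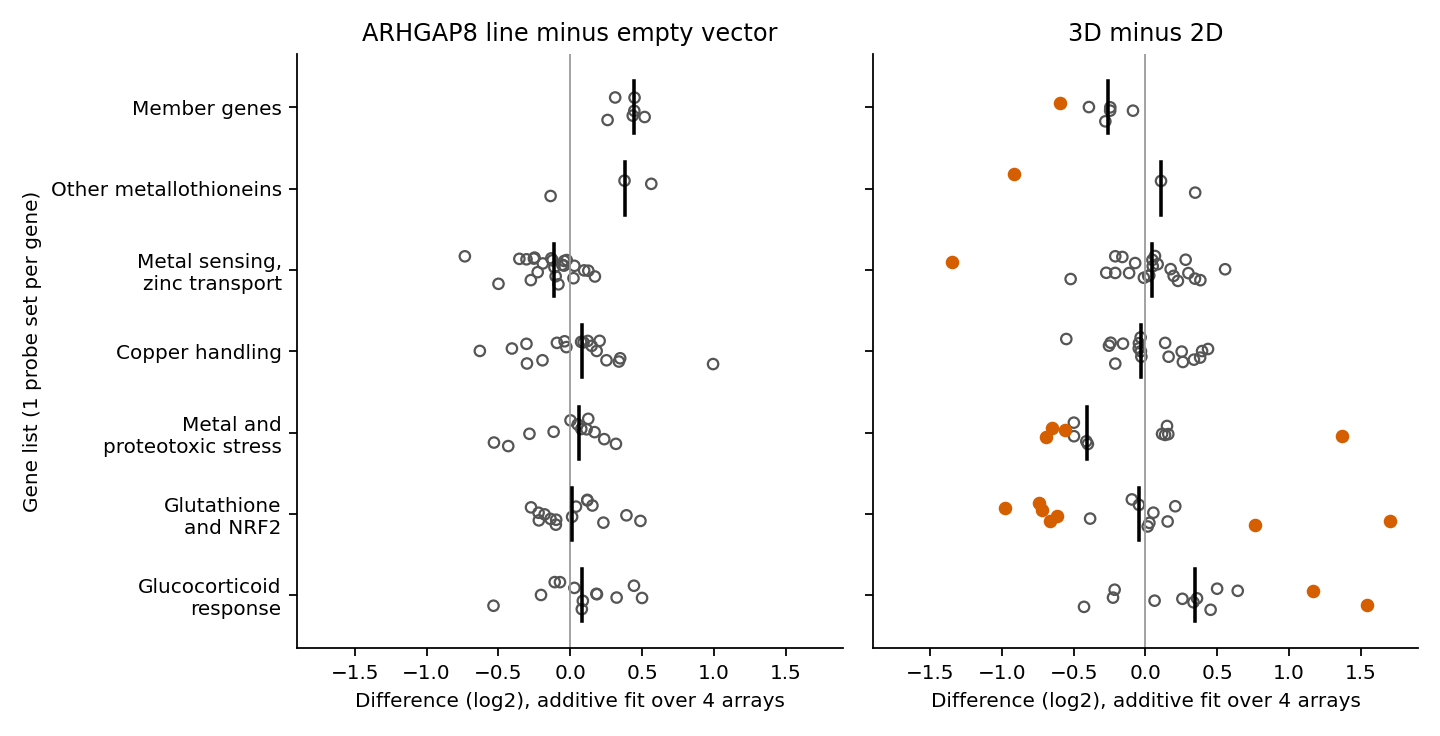
Additive differences (log2) of single genes in the member list and in 6 lists of related genes, between the lines (left) and between the cultures (right); filled points passed limma, BH-adjusted over 13239 genes, and black bars are list medians. No gene is filled on the left. On the right MT1E is filled in this 1-probe-set-per-gene fit, as are MT1HL1 and SLC30A1. The other filled points include CRYAB at 1.37, ME1 at 1.70 and TSC22D3 at 1.54.

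The profile of the member genes, as the median of 6 genes each centred on its mean over the 4 arrays, was -0.01 and 0.37 log2 in 2D and -0.38 and 0.08 in 3D. MT2A and MT1X lay closest to it, at Euclidean distances of 0.11 and 0.12, and MT1F farthest at 0.43. Outside the family, the genes with the most like profile over these 4 arrays were BICRA, CCP110, SAFB2, CSPP1 and LLPH, at distances of 0.05 to 0.08. With only 4 arrays, 143 of 11195 genes lay within 0.2, nearer than MT1E at 0.27.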

How the data were processed

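The authors deposited 1 intensity on a linear scale for each probe set and array, and the submitters' processing notes name MAS5; the software version, and any detection calls, are not given in the sources used here. Array signals were set to one trimmed mean (2% cut from each end). Values under the median of all scaled values, 72.3, were raised to that floor before taking log2. A total of 62 control probe sets were left out. Probe sets above the floor on at least 2 arrays, 28651, were tested in limma 3.58.1 under R 4.3.3 with an additive model of plasmid and culture, eBayes with an intensity trend, two-sided, Benjamini-Hochberg adjustment and a threshold of 0.05. The model has 1 residual degree of freedom and 13.9 prior degrees of freedom, so each SE draws mostly on probe sets of like signal. That residual is the difference of the line effect between the cultures, so a real difference of this kind counts as error. The p-values measure only this spread over these arrays, which may be technical. The number of arrays limits the precision. The fit was tested on simulated data, where it recovered few of the smallest changes, which were larger than most member differences, and made more false calls than the nominal threshold. Lists of related genes used 1 probe set per gene, the one naming it alone with the highest mean, over 13239 genes. Of 54613 probe sets without controls, 41091 carried 1 gene symbol, 1801 several and 11721 none; symbols were updated through the gene identifier in the RefSeq table for 41037.

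Named were every member probe set, up to 5 genes per list with the lowest adjusted p plus MTF1, SLC30A1, HMOX1, ATP7A and FKBP5, and the 5 genes with the closest profile. GCLC and SLC7A11 were added because they complete the genes of their list that passed. Members and lists were chosen with earlier results of these data known. Alternatives changed the scaling, floor, filter, variance prior and unit of the fit, or left out an array. The mean of probe sets per gene took in every probe set of the gene, those at the floor on every array included.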

Additional observations from a re-analysis of the deposited data

Results flagged for a closer look

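The 18S and 28S ribosomal RNA control probe sets, which enter no comparison, carried a signal on the ARHGAP8 3D array well above the other 3 arrays. The median was 626 for 18S ribosomal RNA, against 44.9, 49.4 and 27.7 on the empty-vector 2D, ARHGAP8 2D and empty-vector 3D arrays. For 28S ribosomal RNA it was 1390 against 94.4, 119 and 117. Without that array the metallothioneins have a line difference in 2D alone, with a median of 0.45 log2, and a culture difference in the empty-vector line alone, with a median of -0.30.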

How the results depend on the processing

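The count of member probe sets passing for the culture was 0 as reported and 1, MT1E, with 1 probe set per gene and with probe sets above the floor on all 4 arrays; the count for the line was 0 under each of the 10 alternatives run. The 4 medians kept their direction under those alternatives. For the line they lay between 0.43 and 0.47 log2 in 2D and between 0.39 and 0.43 in 3D. Culture medians lay between -0.34 and -0.26 with the empty vector, and between -0.29 and -0.25 with ARHGAP8. Most alternatives could not move these medians. Members with signal were above the floor on all 4 arrays, so changing the floor or the filter left their ratios as they were. Dropping the intensity trend, or keeping only probe sets that name 1 gene, could not change them either. The ranges thus come only from quantile and cyclic loess normalization, 1 probe set per gene and the mean of probe sets per gene. Leaving out an array leaves no residual degree of freedom, so only single ratios remain. Each median then comes from the 2 arrays it was made from before (0.45 in 2D, 0.42 in 3D, -0.30 and -0.26), which says nothing about stability. For probe set 217165_x_at of MT1F, leaving out 1 array in turn gave line differences from -0.066 (without either 3D array) to 0.69 (without either 2D array) and culture differences from -0.47 (without either ARHGAP8 array) to 0.29 (without either empty-vector array), so that the sign turned in both. Over the whole table the test between the lines called 28 probe sets with the filter on all 4 arrays, 17 genes with 1 probe set per gene and 0 otherwise. For the culture the table's 1001 calls became 1323 with the filter on all 4 arrays, 925 genes with 1 probe set per gene, 485 and 499 after quantile and cyclic loess normalization, 588 without a floor, 632 with the floor halved, 360 without an intensity trend, 36 with the mean of probe sets per gene and 0 without a filter. In the 6 lists of related genes 15 genes passed for the culture, 12 to 16 under the other scalings, floors and the filter on all 4 arrays, but 7 without an intensity trend, 1 with the mean of probe sets per gene and 0 without a filter; for the line 0 passed, and 1, SLC31A1, with the filter on all 4 arrays. SLC30A1 kept its culture call in 5 of 7 settings. BAG3, HSPH1, GCLM, GSS and FTL kept theirs in 5 of 8, and CRYAB, KEAP1, TSC22D3 and CEBPD in 6. ME1 kept it in 7 of 8, and DNAJA1, GCLC and SLC7A11 in only 2. Member probe sets without a shared-probe suffix were both under the floor, so that alternative gave no value. No background correction was run: MAS5 as a rule includes one, but the settings used are not given in the sources used here. No paired analysis was possible because each group holds 1 array with no replicate numbers to pair, and the additive model already compares the lines within each culture.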
